A study of Mus musculus with 60 samples.

Results

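The expression of 10 histone chaperone genes was followed in mouse embryonic stem cells (mESCs) in which histone recycling at replication forks was perturbed. The genes were chosen by name, with earlier results of these data known, and are Chaf1a, Chaf1b, Asf1a, Asf1b, Nasp, Hira, Daxx, Atrx, Tonsl and Ssrp1. They are 10 of the 55487 genes counted, and all 10 passed the filter on low counts in each of the 35 comparisons. Histone chaperones bind histones and hand them to DNA, to other chaperones or to the machines that copy and transcribe chromatin. CHAF1A and CHAF1B are subunits of CAF-1, which deposits new H3-H4 behind the replication fork and receives them from ASF1A or ASF1B, while NASP keeps a soluble reserve of H3-H4. HIRA and the DAXX-ATRX pair deposit the variant H3.3 outside replication, TONSL recognises newly made H4 on freshly replicated chromatin, and SSRP1 together with SUPT16 forms FACT, which takes nucleosomes apart and rebuilds them ahead of and behind polymerases.

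All 60 libraries came from E14JU mESCs in which POLE4, a histone-fold subunit of the leading-strand DNA polymerase epsilon, carries a degradation tag (POLE4-dTAG), so the controls carry the tag too. The line was used as such or with MCM2-2A, a mutation that abolishes histone binding by the replicative helicase subunit MCM2. DMSO (Ctrl) or 1 µM dTAG (dPOLE4) was given for 24 h or 96 h in serum and LIF, and the 24 h cells were either taken at once (T0) or moved to retinoic acid (RA) without LIF and taken 12, 24 or 60 h later (T12, T24, T60) by the sample titles and the study's methods, while the protocol in the labels names other hours for the first and second of these. The 4 states (Ctrl, dPOLE4, Ctrl MCM2-2A, dPOLE4 MCM2-2A) at 5 times gave 20 groups of 3 libraries. Each genotype was 1 clonal line, so the MCM2-2A mutation and other differences between the lines cannot be told apart. dTAG removes protein, so the Pole4 transcript is no check of the depletion.

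The deposited values were counts per gene, and the totals ran from 10461077 to 46609151 in the 48 libraries of the RA experiment and from 7126100 to 23598266 in the 12 libraries of the 96 h experiment. A member gene had between 191 and 25039 counts in a library, with a median of 1708. Levels below are CPM, the count of a gene scaled to a fixed library total after TMM normalisation, and a change is a log2 fold change from edgeR's quasi-likelihood test with its standard error (SE) and its Benjamini-Hochberg adjusted p over all features tested. A gene was called when its adjusted p was under 0.01 and its log2 fold change was past 0.58 in size, which is 1.5-fold, and genes that met the p threshold alone were counted separately. The study describes the replicates as biological, and the labels do not say whether they were separate cultures. In such bulk RNA, fewer cells of a type and less RNA per cell cannot be told apart. The label of embryonic stem cells matched the markers, since all 9 pluripotency markers were detected at T0 and their summed level was 3835 to 3969 CPM in Ctrl and 4744 to 5291 CPM in Ctrl MCM2-2A.

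Promoter sequence is shown for 4 members to which the results below return most, both CAF-1 subunits, Nasp and Atrx. Each window is the RefSeq stretch from 250 bases before to 50 bases after the gene start on GRCm38.p6, written 5′ to 3′ on the strand of the gene. Capitals mark the letters TTCCCGC or TTGGCGC, the cores to which E2F factors bind, and TTTGAA or TTCGAA, the CHR element of cell cycle genes, on either strand. The windows are chr17:56040166-56040465 (plus strand) for Chaf1a, chr16:93883651-93883950 (plus) for Chaf1b, chr4:116627902-116628201 (minus) for Nasp and chrX:105929323-105929622 (minus) for Atrx.
Chaf1a: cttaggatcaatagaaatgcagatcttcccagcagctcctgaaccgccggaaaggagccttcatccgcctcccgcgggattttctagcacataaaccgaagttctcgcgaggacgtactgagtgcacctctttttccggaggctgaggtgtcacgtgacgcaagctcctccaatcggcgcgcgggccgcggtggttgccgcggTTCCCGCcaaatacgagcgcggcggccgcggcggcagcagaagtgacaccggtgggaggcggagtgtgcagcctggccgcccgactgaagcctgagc
Chaf1b: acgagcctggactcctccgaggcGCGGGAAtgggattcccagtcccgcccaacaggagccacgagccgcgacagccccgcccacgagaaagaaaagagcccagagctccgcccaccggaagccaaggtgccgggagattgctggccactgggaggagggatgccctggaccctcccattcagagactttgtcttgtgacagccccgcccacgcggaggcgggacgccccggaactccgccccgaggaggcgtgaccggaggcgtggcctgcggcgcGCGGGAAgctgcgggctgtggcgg
Nasp: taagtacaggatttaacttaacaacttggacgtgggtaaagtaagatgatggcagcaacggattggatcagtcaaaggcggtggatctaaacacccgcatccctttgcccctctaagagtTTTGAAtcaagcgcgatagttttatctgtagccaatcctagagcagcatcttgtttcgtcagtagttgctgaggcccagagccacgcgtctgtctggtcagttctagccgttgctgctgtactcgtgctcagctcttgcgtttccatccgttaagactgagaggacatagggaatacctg
Atrx: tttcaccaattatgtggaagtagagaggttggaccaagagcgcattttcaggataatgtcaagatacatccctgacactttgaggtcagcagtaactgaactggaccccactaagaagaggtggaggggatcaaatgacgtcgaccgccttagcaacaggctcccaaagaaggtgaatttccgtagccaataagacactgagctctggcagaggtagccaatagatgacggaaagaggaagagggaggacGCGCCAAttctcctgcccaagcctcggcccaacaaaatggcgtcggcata

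RefSeq windows were matched for 9 of the 10 members, with 12 windows in all, and Tonsl had no entry. An E2F core was found in 4 of the 12 windows, from 4 of the 9 genes (Chaf1a, Chaf1b, Atrx and the second window of Ssrp1), against 6.81% of 32851 windows of the same length. Chaf1a held TTCCCGC 47 bases before its start, and Chaf1b held it on the minus strand 227 bases before and 27 bases after its start. A CHR element was found in 4 of the 12 windows, from 3 genes, Asf1b, Nasp and Ssrp1, against 19.2% of all windows. That of Nasp lay 130 bases before the start. CCAAT, also searched on both strands, was found in 6 of the 12 windows, from 6 genes, against 37.4% of all windows. It occurred 4 times in the Atrx window, where 1 copy overlapped the E2F core. The matches are letters in a window and say nothing of binding.

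Level per kilobase of exon set the members apart more than any treatment did. In Ctrl cells at T0, Ssrp1 was the most abundant at 95.7 ± 0.524 CPM per kilobase (SD, n = 3), followed by Nasp at 56.5 ± 1.05 and Daxx at 28 ± 0.738. Chaf1a had 19.9 ± 0.452 CPM per kilobase, Asf1b 16.7 ± 0.787, Atrx 15.3 ± 0.478 and Tonsl 14.4 ± 0.184. Chaf1b (12.1 ± 0.647), Hira (11.2 ± 0.636) and Asf1a (10.3 ± 0.715) closed the order, and in it the libraries of Chaf1b overlapped those of Hira and the libraries of Hira those of Asf1a. Over the 16 groups of the RA experiment the mean level of Atrx varied most, 2.46-fold from 332 CPM in Ctrl at T0 to 135 CPM. Nasp varied 1.94-fold, Tonsl 1.89-fold, Chaf1b 1.85-fold and Daxx 1.64-fold. Chaf1a varied least, 1.34-fold, and it was lowest in Ctrl at T0 (177 CPM) and highest in Ctrl at T60 (237 CPM).

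**Figure D1:**
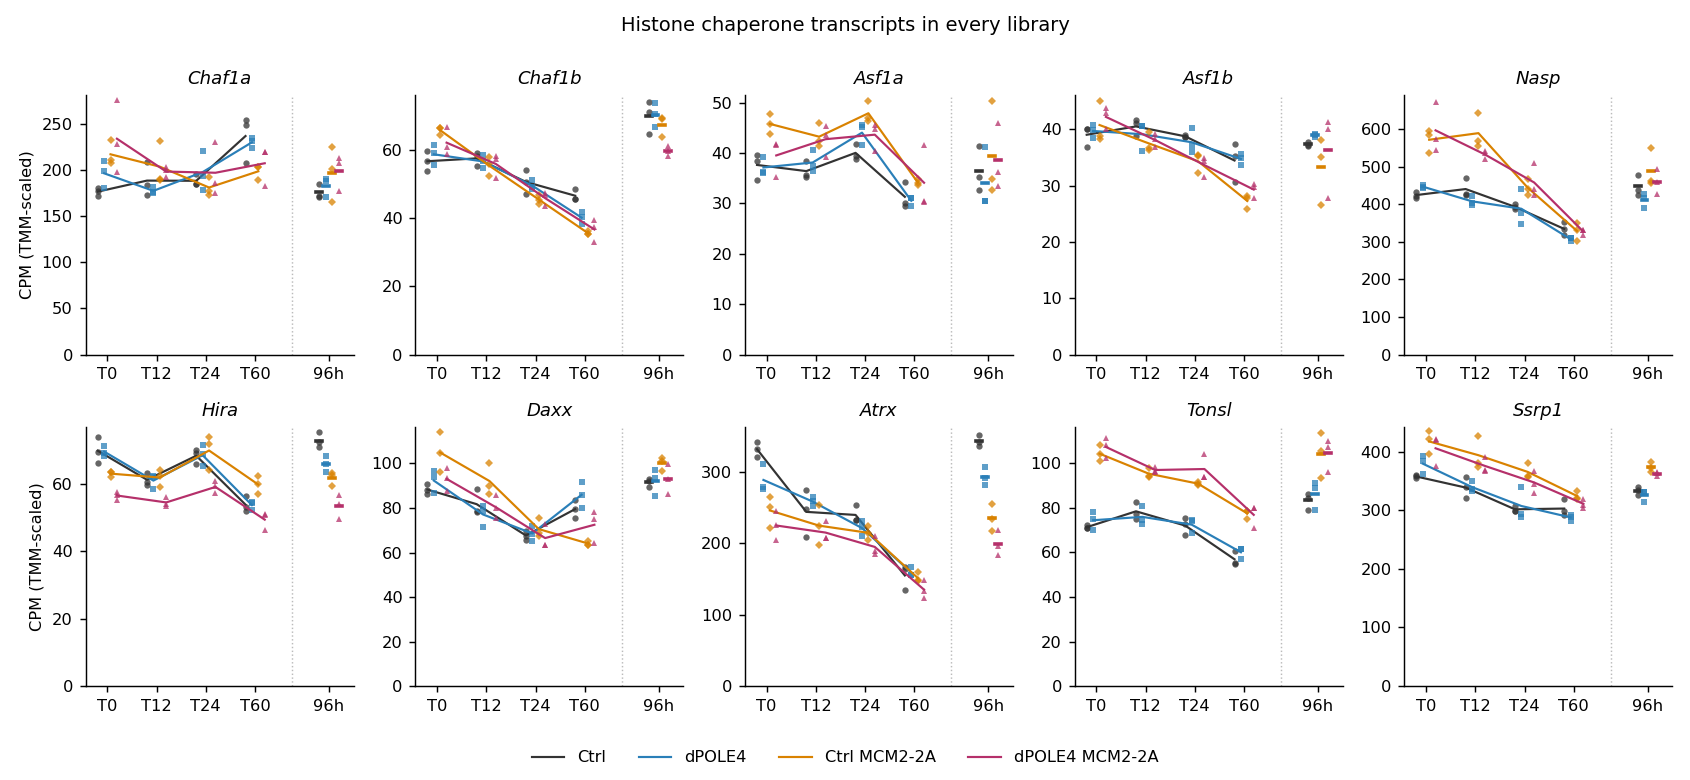
TMM-scaled CPM of each of the 10 genes in every library (points), by time, with 1 colour per state. Lines join the means of 3 libraries over T0 to T60 and the 96 h groups stand apart, because the 2 experiments were normalised separately. Atrx falls in all states from T0 to T60, from 321.6 to 342.4 CPM down to 134.1 to 167.2 CPM in Ctrl.

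The RA time course asked how the cells' transcripts changed as they left pluripotency. At T60 against T0, 1 of the 10 genes was called in Ctrl, 1 in dPOLE4, 4 in Ctrl MCM2-2A and 3 in dPOLE4 MCM2-2A, and each of these 9 calls was a fall. Of all features tested, 50.6%, 48.1%, 47.5% and 42.2% were called in these 4 states, and 23.7%, 22.5%, 21.2% and 19.3% were called lower. The members were thus called less often than all features in each of the 4 states. They were called lower less often than all features in Ctrl and dPOLE4 and more often in both MCM2-2A states. No test compared the members with all features. By the adjusted p alone, 8, 9, 8 and 7 of the 10 passed, against 66.7%, 66.6%, 64% and 53.3% of all features. Among these, 7 in Ctrl, 8 in dPOLE4, 8 in Ctrl MCM2-2A and 7 in dPOLE4 MCM2-2A were lower, where 32.6%, 33.1%, 30.9% and 25.7% of features were lower. The median log2 change of the 10 genes was -0.297, -0.366, -0.493 and -0.459 in the 4 states, beside -0.0134, -0.0111, -0.00295 and -0.0317 over all features tested.

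Atrx, the SNF2-family remodeller that deposits H3.3 with DAXX at repeats and telomeres, was called lower in all 4 states at T60. In Ctrl it had 321.6, 342.4 and 331.8 CPM at T0 and 134.1, 163.7 and 167.2 CPM at T60. The libraries of the 2 times lay far apart, and the log2 change was -1.12 ± 0.08 (SE, adjusted p = 4.62e-09). In dPOLE4 cells Atrx went from 276.8, 310.6 and 279 CPM to 166.2, 155.1 and 156.3 CPM, a change of -0.88 ± 0.06 (adjusted p = 5.02e-09). Ctrl MCM2-2A cells started lower, at 221.3, 251.3 and 265.6 CPM, and reached 147.3, 159.5 and 148.1 CPM, a change of -0.69 ± 0.07 (adjusted p = 2.58e-06). In dPOLE4 MCM2-2A cells 204.7, 225.6 and 244.9 CPM became 133.5, 123.3 and 148.5 CPM (-0.76 ± 0.10, adjusted p = 2.55e-05). The means of the 4 states lay further apart at T0 than at T60. The fall began early in Ctrl, where Atrx was already at 248.8, 209.3 and 274.1 CPM at T12 (log2 change -0.44, adjusted p = 0.00139) and at 232.8, 232.9 and 253.6 CPM at T24 (-0.47, adjusted p = 4.98e-07). The T12 value lost its adjusted p without the second Ctrl T0 library.

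The CAF-1 subunits went in opposite directions in the lines without MCM2-2A. Chaf1a, the large subunit that binds PCNA, was higher at T60 in Ctrl, with 254, 207.5 and 249.2 CPM against 177.4, 172.3 and 180.1 CPM at T0 (log2 change 0.40 ± 0.07, adjusted p = 9.34e-05). It was also higher in dPOLE4, with 224.1, 231.8 and 234.3 CPM against 209.7, 180.8 and 199.1 CPM (0.21, adjusted p = 0.00406), where the adjusted p stayed under 0.01 in 2 of 6 fits that each left out a library. The Chaf1a libraries of T0 and T60 did not overlap in either state, but neither change reached the fold threshold. In Ctrl MCM2-2A the Chaf1a change was -0.12 (adjusted p = 0.109) and in dPOLE4 MCM2-2A it was -0.20 (adjusted p = 0.162). Chaf1b, the WD40 subunit, was lower at T60 in all 4 states by the adjusted p. In Ctrl it went from 53.64, 59.7 and 56.56 CPM to 45.52, 45.51 and 48.56 CPM (-0.31, adjusted p = 0.000919), and in dPOLE4 it changed by -0.57 (adjusted p = 1.56e-06). It was called only in the MCM2-2A states, where Ctrl MCM2-2A went from 66.46, 66.34 and 64.37 CPM to 36.06, 35.31 and 35.33 CPM (-0.87 ± 0.06, adjusted p = 3.62e-08). In dPOLE4 MCM2-2A, Chaf1b went from 58.77, 66.75 and 60.68 CPM to 39.33, 37.5 and 33.11 CPM (-0.79 ± 0.10, adjusted p = 1.91e-05).

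Nasp, the H3-H4 reserve chaperone, was lower at T60 in all 4 states. In Ctrl its 433.2, 417.6 and 423.4 CPM became 318.1, 334 and 351.8 CPM (log2 change -0.36, adjusted p = 5.58e-05), and in dPOLE4 it changed by -0.56 (adjusted p = 4.16e-08). It was called in Ctrl MCM2-2A, from 594.8, 537.3 and 583.6 CPM to 351.3, 303.5 and 333 CPM (-0.78 ± 0.07, adjusted p = 4.94e-07), and in dPOLE4 MCM2-2A, from 671.7, 574 and 545 CPM to 333, 317.5 and 331.7 CPM (-0.89 ± 0.09, adjusted p = 3.97e-06). The MCM2-2A cells held more Nasp at T0, and at T60 the levels of the 2 lines overlapped. The ASF1 donors moved less. Asf1b, the form tied to proliferation, changed by -0.19 in Ctrl (adjusted p = 0.0438), -0.21 in dPOLE4 (adjusted p = 0.00653), -0.57 in Ctrl MCM2-2A (adjusted p = 2.46e-05) and -0.55 in dPOLE4 MCM2-2A (adjusted p = 0.000169). Its paralog Asf1a changed by -0.29 in Ctrl (adjusted p = 0.00617), -0.31 in dPOLE4 (adjusted p = 0.000934), -0.41 in Ctrl MCM2-2A (adjusted p = 9.56e-05) and -0.24 in dPOLE4 MCM2-2A (adjusted p = 0.114). The Asf1b value in dPOLE4 and the Asf1a value in Ctrl each kept an adjusted p under 0.01 in 2 of 6 fits that left out a library, and with DESeq2 they had 0.0269 and 0.0165. The dPOLE4 MCM2-2A libraries of Asf1a at T60 were uneven, at 30.37, 30.43 and 41.51 CPM.

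Among the H3.3 chaperones other than Atrx, Daxx was lower at T24 in every state, and at T60 its level was called lower only in Ctrl MCM2-2A. In Ctrl, Daxx had 90.72, 87.98 and 86.1 CPM at T0, 65.67, 69.63 and 67.61 CPM at T24 and 83.38, 75.49 and 79.66 CPM at T60. The T24 level was lower than at T0 (log2 change -0.38, adjusted p = 1.1e-05), while the T60 change of -0.17 had an adjusted p of 0.0202. In Ctrl MCM2-2A, Daxx had 113.9, 104.6 and 96.23 CPM at T0, 68.54, 75.61 and 67.44 CPM at T24 and 63.53, 63.59 and 65.04 CPM at T60, and it was called at T60 (-0.70 ± 0.07, adjusted p = 8.22e-07). The dPOLE4 MCM2-2A change at T60 was -0.39 (adjusted p = 0.00321) and the dPOLE4 change was -0.12 (adjusted p = 0.0836). Daxx was the only member past the adjusted p in all 4 states at T24, with changes of -0.42 in dPOLE4 (adjusted p = 0.00044), -0.55 in Ctrl MCM2-2A (adjusted p = 2.36e-05) and -0.50 in dPOLE4 MCM2-2A (adjusted p = 0.000488). Hira, the WD40 subunit that binds H3.3-H4 with UBN1 and CABIN1, went from 69.4, 73.9 and 66.02 CPM to 56.48, 51.91 and 52.98 CPM in Ctrl at T60 (-0.39 ± 0.07, adjusted p = 9.11e-05) and changed by -0.40 in dPOLE4 (adjusted p = 1.43e-05). Its change was -0.07 in Ctrl MCM2-2A (adjusted p = 0.335) and -0.22 in dPOLE4 MCM2-2A (adjusted p = 0.0356).

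Tonsl and Ssrp1 were lower at T60 in every state by the adjusted p and called in none. Tonsl in Ctrl went from 70.77, 70.76 and 72.34 CPM to 60.74, 55.2 and 54.8 CPM, and its log2 change was -0.34 in Ctrl, -0.33 in dPOLE4, -0.42 in Ctrl MCM2-2A and -0.51 in dPOLE4 MCM2-2A. Ssrp1 in Ctrl went from 359.5, 357.7 and 355.6 CPM to 298.4, 291.4 and 318.9 CPM, and its change was -0.26, -0.42, -0.35 and -0.41 in the same order. The highest adjusted p among these 8 values was 0.00089.

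**Figure D2:**
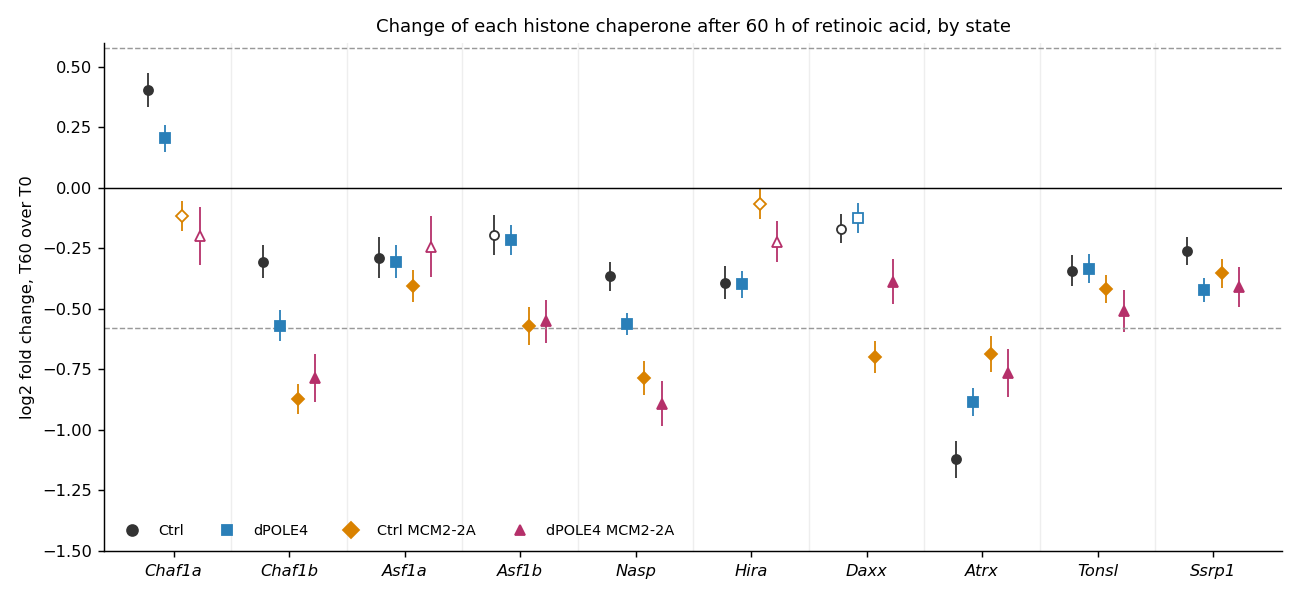
Log2 fold change of each of the 10 genes at T60 against T0 in each of the 4 states, with bars of 1 SE. Filled symbols have an adjusted p under 0.01 and dashed lines mark the fold threshold of 0.58 in size. Atrx lies below the lower line in all 4 states, Chaf1b and Nasp in both MCM2-2A states, and Chaf1a is the only gene with filled symbols above 0.

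Earlier in the time course fewer members passed. No member was called at T12 or T24, against 11.3%, 11.7%, 8.65% and 7.79% of features at T12 and 21.8%, 19.2%, 23.9% and 19.6% at T24 in Ctrl, dPOLE4, Ctrl MCM2-2A and dPOLE4 MCM2-2A. By the adjusted p alone, the members that passed at T12 were Atrx in Ctrl and Daxx in dPOLE4 (-0.27, adjusted p = 0.00446), and no member passed in either MCM2-2A state, against 20.1%, 26.1%, 14.8% and 12.5% of features. At T24, 3 members passed in Ctrl, 3 in dPOLE4, 4 in Ctrl MCM2-2A and 4 in dPOLE4 MCM2-2A, all of them lower, against 42.7%, 30.5%, 40.3% and 29.9% of features that passed and 20.3%, 13.9%, 18.8% and 15.2% that passed as lower. Beside Daxx, these were Atrx and Ssrp1 in Ctrl and dPOLE4, Chaf1a, Chaf1b and Nasp in Ctrl MCM2-2A, and Chaf1b, Asf1b and Nasp in dPOLE4 MCM2-2A. Chaf1b changed by -0.51 and Nasp by -0.34 in Ctrl MCM2-2A at T24, and by -0.45 and -0.40 in dPOLE4 MCM2-2A.

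The difference between states was tested directly, as the T60 against T0 change in each state minus that in Ctrl. All 3 of these comparisons share the Ctrl libraries. In Ctrl MCM2-2A, Chaf1b was called, its change being lower than in Ctrl by -0.60 ± 0.08 (log2, SE, adjusted p = 4.96e-05), against 9.1% of features called and 4.4% called lower. In dPOLE4 MCM2-2A, Chaf1a was called at -0.60 ± 0.15 (adjusted p = 0.00791), against 10.9% of features called and 5.95% called lower. By the adjusted p alone, 4 members passed in Ctrl MCM2-2A, where Chaf1a differed by -0.55 (adjusted p = 0.000361), Nasp by -0.45 (adjusted p = 0.00177) and Daxx by -0.56 (adjusted p = 0.000129, against -0.21 and 0.182 in dPOLE4 MCM2-2A), while 12.9% of features passed and 6.93% passed as lower. In dPOLE4 MCM2-2A, 3 passed, with Chaf1b at -0.48 (adjusted p = 0.00637) and Nasp at -0.53 (adjusted p = 0.00242), while 12.8% of features passed and 7.01% passed as lower. In dPOLE4 no member passed, the lowest adjusted p was 0.264, and 0.0104% of features passed. The Atrx fall, smaller by 0.40 in Ctrl MCM2-2A than in Ctrl, had an adjusted p of 0.0189 and did not pass. The Chaf1b call was lost under a scaling that left out chromosomes 11, 14 and 15 and without the filter on low counts, and it held in 6 of 12 fits that each left out 1 library. The Chaf1a call in dPOLE4 MCM2-2A held in 2 of 12 such fits, with values from -0.70 to -0.46. The Chaf1b difference in dPOLE4 MCM2-2A kept its adjusted p in 2 of 12 and lost it without a filter and with 10 counts required in every library.

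Reads from overlapping genes bear on some of these values, since the counting strand is not given in the sources used here. Of the 8854 exon bases of Chaf1a, 4648 lie opposite Ubxn6, a cofactor of the ATPase p97. Ubxn6 changed at T60 by 0.30 in Ctrl (adjusted p = 0.00269), 0.09 in dPOLE4, 0.03 in Ctrl MCM2-2A and -0.02 in dPOLE4 MCM2-2A, the same order of states as for Chaf1a, and its part in the Chaf1a values was not tested. Asf1a shares 1748 bases with Mcm9 on the other strand, and Mcm9 was higher at T60 by 0.56, 0.54, 0.32 and 0.56 in the 4 states, opposite in sign to Asf1a. Hira shares 2778 bases of its own strand with the gene model Gm28539, which changed by -0.34, -0.40, -0.08 and -0.19, so the split of reads between the 2 is uncertain.

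Ratios within a library do not depend on its scaling. Per kilobase of exon, Chaf1a had 1.653 ± 0.1148 times the level of Chaf1b in Ctrl at T0 (SD, n = 3), 1.776 ± 0.1927 times in dPOLE4, 1.746 ± 0.09194 times in Ctrl MCM2-2A and 2.005 ± 0.4123 times in dPOLE4 MCM2-2A. At T60 the ratio was 2.691 ± 0.2702, 3.035 ± 0.09457, 2.953 ± 0.1108 and 2.99 ± 0.09019 in the same order. The ratio was thus higher at T60 in each state without overlap of the libraries. In Ctrl the Chaf1a change (0.40) and the Chaf1b change (-0.31) were of like size, and in the other 3 states the Chaf1b change was the larger. The ratio of Daxx to Atrx went from 1.838 ± 0.09548 at T0 to 3.589 ± 0.6113 at T60 in Ctrl and was 2.977 at T0 and 2.921 at T60 in Ctrl MCM2-2A. For the FACT subunits the ratio parted the lines at every time. Ssrp1 had 1.983 ± 0.09969 times the level of Supt16 in Ctrl at T0 and 1.097 ± 0.02507 times in Ctrl MCM2-2A, and 2.291 against 1.247 times at T60. At T0 the log2 difference of Ctrl MCM2-2A from Ctrl was 1.06 for Supt16, which lies on chromosome 14, and 0.21 for Ssrp1. The part of that chromosome in the ratio was not tested.

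**Figure D3:**
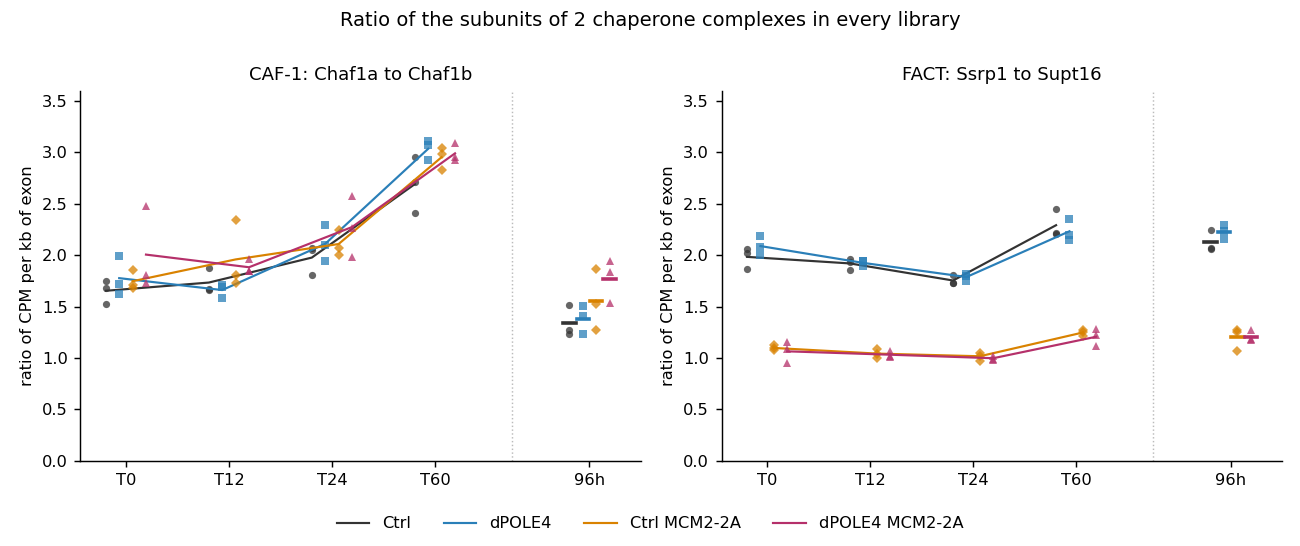
Ratio of Chaf1a to Chaf1b and of Ssrp1 to Supt16, each per kilobase of exon, in every library by time and state. The Chaf1a to Chaf1b ratio lies between 1.525 and 2.478 at T0 and between 2.411 and 3.109 at T60, and the Ssrp1 to Supt16 ratio of the MCM2-2A line lies below that of the line without the mutation at every time.

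The comparison of Ctrl MCM2-2A with Ctrl cells asked what the MCM2 mutation did in cells not given dTAG. No member was called at any of the 5 times, against 18.9%, 14.5%, 17.3%, 16.9% and 15.7% of features at T0, T12, T24, T60 and 96 h. By the adjusted p alone, 7, 2, 4, 4 and 2 members passed, against 33.6%, 24%, 35.3%, 30.2% and 21.6% of features. Over the 5 times 14 values were higher in MCM2-2A and 5 lower. At T0, 6 members were higher, where 16.8% of features were, and 1 was lower, where 16.9% were. At T12 both values were higher (11% of features), at T24 all 4 (18.4%), at T60 1 was higher and 3 lower (14.7% and 15.5%), and at 96 h 1 was higher and 1 lower (11.6% and 10%).

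Tonsl stood out at T0 with 108, 100.8 and 104 CPM in Ctrl MCM2-2A against 70.77, 70.76 and 72.34 CPM in Ctrl (log2 difference 0.53 ± 0.05, adjusted p = 4.4e-06). It was the only member higher at all 5 times. The log2 differences at T12, T24, T60 and 96 h were 0.29, 0.36, 0.45 and 0.34, with adjusted p of 0.00354, 2.45e-05, 5.92e-05 and 0.00918. At 96 h it had 93.16, 113.4 and 105.4 CPM against 79.15, 84.34 and 86.33 CPM, and the libraries did not overlap. The T12 and 96 h values each kept an adjusted p under 0.01 in 1 of 6 fits that left out a library. Tonsl lies on chromosome 15 (76626002 to 76639958, minus strand), and the median difference of all genes tested on that chromosome was 0.559, 0.512, 0.524, 0.467 and 0.526 at the 5 times, with 87% to 90.2% of them higher in Ctrl MCM2-2A. Its neighbour Vps28, which shares 85 exon bases with it, differed by 0.80, 0.70, 0.82, 0.50 and 0.70. Tonsl was thus no further up than the median gene of its chromosome, and the part of the chromosome in its level was not tested. The chromosomes of the other members except Atrx had medians between -0.04 and 0.04.

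Nasp was higher in Ctrl MCM2-2A at T0, with 594.8, 537.3 and 583.6 CPM against 433.2, 417.6 and 423.4 CPM (0.41 ± 0.05, adjusted p = 5.83e-05), at T12 (0.43, adjusted p = 0.000911) and at T24 (0.20, adjusted p = 0.00201). Chaf1a at T0 had 232.7, 210.9 and 207.8 CPM against 177.4, 172.3 and 180.1 CPM (0.28, adjusted p = 0.000738), with no overlap. Ssrp1 was higher at T0 (0.21, adjusted p = 0.00453) and T24 (0.30, adjusted p = 3.95e-05), Asf1a at T0 (0.27, adjusted p = 0.00644) and T24 (0.28, adjusted p = 0.001), and Daxx at T0 (0.23, adjusted p = 0.0076). At T0, Asf1a and Daxx each kept their adjusted p in 1 of 6 fits that left out a library, and Ssrp1 in 3 of 6. The members that were lower in Ctrl MCM2-2A at T60 were Chaf1b (-0.37, adjusted p = 0.000644), Asf1b (-0.33, adjusted p = 0.00562, kept in 1 of 6 such fits) and Daxx (-0.30, adjusted p = 0.00112), so that Daxx was higher at T0 and lower at T60.

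Atrx was lower in Ctrl MCM2-2A in both serum and LIF groups. At T0 it had 221.3, 251.3 and 265.6 CPM against 321.6, 342.4 and 331.8 CPM (-0.44 ± 0.07, adjusted p = 0.000426), and at 96 h 254.6, 216.9 and 234.3 CPM against 351.8, 336 and 341.7 CPM (-0.53 ± 0.08, adjusted p = 0.000246). The libraries were well apart at both times, and without the first Ctrl MCM2-2A library of 96 h the difference was -0.59 (adjusted p = 0.000103) and past the fold threshold. Atrx lies on chromosome X, whose genes had a median difference of -0.168 at T0 and -0.113 at 96 h.

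**Figure D4:**
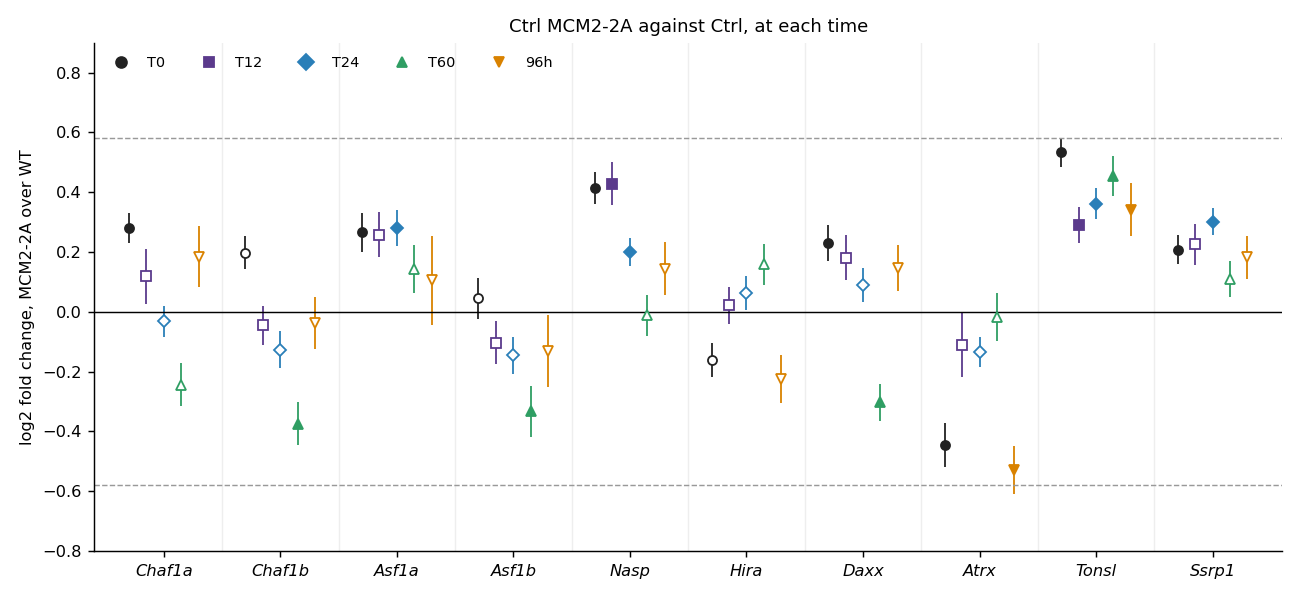
Log2 fold difference of Ctrl MCM2-2A against Ctrl for each of the 10 genes at T0, T12, T24, T60 and 96 h, with bars of 1 SE. Filled symbols have an adjusted p under 0.01 and dashed lines mark 0.58 in size. All symbols lie between the dashed lines, Tonsl is filled at all 5 times and Atrx is filled below 0 at T0 and 96 h.

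With loss of POLE4, no member passed the test in either line at any time in the fit of only the groups compared, without the replicate number. With all groups of the RA experiment fitted together, Hira passed the adjusted p at T24 and T60 in the MCM2-2A line. With the replicate number as a block, Atrx passed the adjusted p at 96 h in both lines, as given below. In the line without MCM2-2A, 0 of 50 values were called or passed the adjusted p, with edgeR and no block. Of all features, 0% were called at T0, T12, T24 and 96 h, and at T60 0.193% were called and 0.415% passed the adjusted p. An unadjusted p under 0.05 was found for 4 of the 50 values, against 11.6%, 6.42%, 7.6%, 14.3% and 12.3% of features at T0, T12, T24, T60 and 96 h. The log2 differences ran from -0.22 to 0.15 and the lowest adjusted p was 0.187, for Chaf1b at T60 (-0.19). In the MCM2-2A line, 0 of 50 values were called or passed in the same fit, and the differences ran from -0.27 to 0.18. Of all features, 0.0715%, 0.404%, 1.02%, 2.25% and 0.304% were called at T0, T12, T24, T60 and 96 h, and 0.0715%, 0.863%, 2.31%, 3.46% and 0.31% passed the adjusted p. Here 10 of the 50 values had an unadjusted p under 0.05, against 13.5%, 17.6%, 21.1%, 23.3% and 11.5% of features at these times. DESeq2 also passed 0 values in either line.

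Atrx was the member with the largest shift in dPOLE4 cells at T0 and 96 h. At T0 it had 276.8, 310.6 and 279 CPM in dPOLE4 against 321.6, 342.4 and 331.8 CPM in Ctrl (-0.21, unadjusted p = 0.00316, adjusted p = 0.359). At 96 h it had 307.1, 291.6 and 282 CPM against 351.8, 336 and 341.7 CPM (-0.22, adjusted p = 0.204), and in MCM2-2A cells 218.1, 195.8 and 183.9 CPM against 254.6, 216.9 and 234.3 CPM (adjusted p = 0.353). The dPOLE4 libraries lay below Ctrl without overlap at both times, while those of the MCM2-2A line overlapped at 96 h. Libraries with the same replicate number deviated together at 96 h, and with the replicate number as a block the 96 h difference was -0.22 ± 0.05 (adjusted p = 0.00681) in dPOLE4 and -0.24 ± 0.04 (adjusted p = 0.000635) in dPOLE4 MCM2-2A, under the fold threshold in both.

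Hira was the member with the largest shift in dPOLE4 MCM2-2A cells at T24 and T60, while another member had a larger one at T0, T12 and 96 h. At T24 it had 60.75, 59.21 and 57.14 CPM against 71.69, 73.71 and 64.08 CPM in Ctrl MCM2-2A, and at T60 50.68, 51.07 and 46.28 CPM against 59.83, 56.95 and 62.38 CPM. The libraries did not overlap at any of the 5 times, and the log2 differences were -0.15, -0.18, -0.24, -0.27 and -0.20 at T0, T12, T24, T60 and 96 h, with adjusted p from 0.042 to 0.39. With all groups of the RA experiment in the edgeR fit, the adjusted p of Hira was 0.00221 at T24 and 0.000345 at T60. Gm28539, which shares exon bases with Hira, had a mean of 35.21 CPM against 42.15 CPM at T60. The split of reads between them was not tested. Whether the effect of POLE4 loss differed between the lines was tested as an interaction. No member was called or passed the adjusted p with edgeR, and DESeq2 passed 0. The lowest adjusted p was 0.253, for Hira at T60 (-0.27). An unadjusted p under 0.05 was found for 6 of 50 values, against 5.39%, 7.4%, 8.81%, 10.1% and 3.7% of features at T0, T12, T24, T60 and 96 h. Of all features, 0.00526%, 0.0159%, 0.0351%, 0.1% and 0% were called at T0, T12, T24, T60 and 96 h, and the share past the adjusted p was 0.116% at T60 and the same as the called share at the other times.

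**Figure D5:**
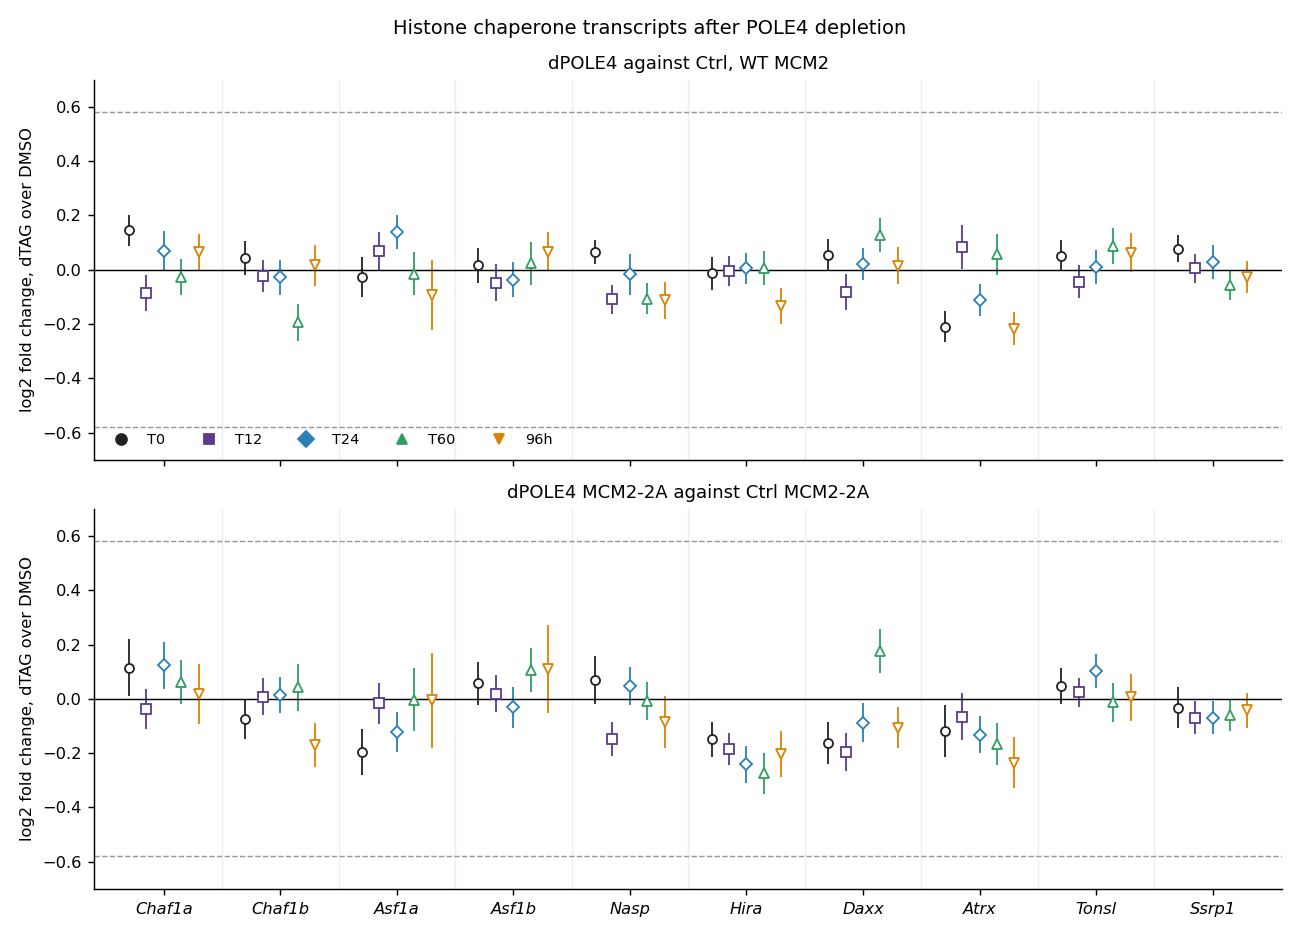
Log2 fold difference of dTAG over DMSO for each of the 10 genes at each time, in the line without MCM2-2A and in the MCM2-2A line, with bars of 1 SE. All symbols are open (adjusted p of 0.01 or more) and all lie between -0.27 and 0.18.

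The other genes of histone supply and deposition were counted from a list of 35, among them importins, nucleoplasmins, NAP and SET family proteins and the centromeric chaperones. With loss of POLE4 none of them was called at any time in either line. In Ctrl MCM2-2A against Ctrl, 4, 4, 4, 3 and 5 were called at T0, T12, T24, T60 and 96 h. Of all features, 18.9%, 14.5%, 17.3%, 16.9% and 15.7% were called at these times, so the list was called less often at each. Supt16, the FACT partner of Ssrp1, was higher by 1.06, 1.11, 1.09, 0.98 and 1.01, and Ipo4, the importin that carries H3-H4 bound to ASF1, by 0.96, 1.00, 0.96, 1.03 and 0.93. Both lie on chromosome 14, whose median difference was 0.209 to 0.349, with 62.3% to 67.3% of its genes higher. A median over the whole chromosome need not hold for the part in which they lie. The part of that chromosome in their levels was not tested. Mcm2 itself was lower at the 5 times (-0.70, -0.85, -0.89, -0.82 and -0.81). Pole4 was lower at T0 (-0.68), T12 (-0.75), T24 (-0.61) and 96 h (-0.95) in these DMSO-treated cells and was not called at T60. The part of chromosome position in the levels of Mcm2 and Pole4 was not tested. Npm1 was called lower at 96 h (-0.63). At T60 against T0, 15 of 34 tested were called in Ctrl (4 higher, 11 lower), 14 of 34 in dPOLE4 (3 and 11), 13 of 35 in Ctrl MCM2-2A (3 and 10) and 17 of 35 in dPOLE4 MCM2-2A (4 and 13). Of all features, 50.6%, 48.1%, 47.5% and 42.2% were called in these states, and 23.7%, 22.5%, 21.2% and 19.3% were called lower. The list was called less often than all features except in dPOLE4 MCM2-2A, and called lower more often in each state. Its medians of -0.304, -0.313, -0.515 and -0.438 were close to those of the 10 members. Among the largest in Ctrl were Npm3 (-1.31), Npm1 (-1.24), Set (-1.21) and Pole4 (-1.19). In Ctrl MCM2-2A they included Npm3 (-1.15), Set (-1.06), Ubn1 (1.03), the HIRA complex subunit, and Mcm2 (-0.96).

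S phase genes and cell type markers were measured over the same contrasts. Of 32 S phase genes, 13 were called at T60 in Ctrl, 20 in dPOLE4, 22 in Ctrl MCM2-2A and 19 in dPOLE4 MCM2-2A, all lower except Gins3 (0.70) in the last. The share called was thus under the 50.6% of all features in Ctrl and over the 48.1%, 47.5% and 42.2% in the other 3 states. The share called lower was over that of all features in each state, which was 23.7%, 22.5%, 21.2% and 19.3% in the same order. Their summed level went from 5214 ± 94.61 to 3536 ± 138 CPM in Ctrl (SD, n = 3) and from 6623 ± 359.3 to 3599 ± 52.95 CPM in Ctrl MCM2-2A, so that the 2 lines ended at like levels in Ctrl cells. With loss of POLE4 the sums at T60 were 3473 ± 57.02 CPM in dPOLE4 and 3902 ± 26.03 CPM in dPOLE4 MCM2-2A. The sums themselves were not tested. At T60, 0 of the 32 genes passed edgeR's adjusted p in dPOLE4 MCM2-2A against Ctrl MCM2-2A (lowest 0.0104). For the difference of the dPOLE4 effect between the lines 0 passed as well (lowest 0.271), and 31 of the 32 values lay above 0 in each comparison. The T60 against T0 change of E2f2 was lower than in Ctrl by -1.46 in Ctrl MCM2-2A and -1.25 in dPOLE4 MCM2-2A, that of E2f1 by -0.85 and -0.87 and that of Uhrf1 by -0.64 and -0.62. All 9 pluripotency markers were still detected at T60, with sums of 295.4 to 392.4 CPM in Ctrl and 686.9 to 863.4 CPM in Ctrl MCM2-2A. The 6 fibroblast markers reached 365.1 to 513.2 CPM at T60 in Ctrl, 163.7 to 178 CPM in Ctrl MCM2-2A and 65.03 to 81.34 CPM in dPOLE4 MCM2-2A, where Lum was at 0. The 5 extraembryonic endoderm markers reached 280 to 349.7 CPM in Ctrl and 511.6 to 564.8 CPM in Ctrl MCM2-2A, and the 5 two-cell-like markers 222.3 to 302 and 136.6 to 184.7 CPM. Their part in the members' changes was not tested.

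Over the 16 group means of the RA experiment, which share the 4 states and 4 times, the members did not follow 1 pattern. Pearson's r of log2 CPM was 0.938 between Chaf1b and Asf1b, 0.913 between Nasp and Ssrp1 and 0.848 between Nasp and Tonsl, but -0.109 between the CAF-1 subunits Chaf1a and Chaf1b and -0.627 between Chaf1a and Hira. Among 9831 genes, those most like Chaf1b were Ddx49 (0.977), Pold1 (0.977), the catalytic subunit of DNA polymerase delta, and Wdr89 (0.973). Those most like Nasp were Itpk1 (0.985), Nop14 (0.982) and Rita1 (0.977), and those most like Atrx were Cwf19l2 (0.987), Smarcad1 (0.98), another SNF2-family remodeller, and Strap (0.978). Chaf1a had weaker neighbours, 2210016L21Rik (0.895), Tsen34 (0.89) and Cox7a2l (0.887). Asf1b was closest to Ceacam20 (0.957), Cenpo (0.955) and Anapc15 (0.95), Asf1a to Tial1 (0.944), Dynlt1b (0.932) and Ubr7 (0.932), and Daxx to Ahdc1 (0.926), Znfx1 (0.919) and Wsb2 (0.904). Tonsl was closest to Pou6f1 (0.985), also on chromosome 15, to Klhl12 (0.984) and to Esco2 (0.973), Ssrp1 to Pitrm1 (0.976), Aplp1 (0.971) and Gm4737 (0.97), and Hira to Gm28539 (0.995), with which it shares exons, Nhlrc2 (0.947) and Hnrnpl (0.893).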

How the data were processed

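The authors trimmed reads of rRNA-depleted, strand-specific libraries with cutadapt 4.2, aligned them to mm10 (GRCm38) with STAR and counted genes and repeat subfamilies with TEtranscripts. The deposited tables hold raw counts for 56633 features, of which 55487 are genes and 1146 repeat subfamilies, and every column was mapped to a sample by its title. Gene positions and exon lengths came from GENCODE M21 on GRCm38, and promoter windows from RefSeq.

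Each comparison was fitted on the libraries of its own groups with edgeR 4.0.16 in R 4.3.3. Features with low counts were dropped by filterByExpr at a minimum count of 10 and a total of at least 15, libraries were scaled by TMM, and features tested with glmQLFit and glmQLFTest, with Benjamini-Hochberg adjustment over all features tested. DESeq2 1.42.0 was an alternative. The 2 experiments were separate tables and were not compared. CPM for nearest patterns were log2-transformed with a pseudocount of 0.1, among genes with a mean of at least 10 CPM. Other histone chaperones were named when called, up to 5 per comparison by size of change, S phase genes up to 3, and nearest patterns were the 3 genes with the highest r. A marker list and a gene that this rule would name are not reported here. The members and lists were chosen with earlier results of these data known. The edgeR fit was checked on simulated counts for Ctrl MCM2-2A at T60 against T0 and for dPOLE4 against Ctrl at 96 h. The same was done for the T60 against T0 change of Ctrl MCM2-2A minus that of Ctrl. The other comparisons and the alternative fits were not simulated.

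Groups shared replicate numbers. Of 27 comparisons with 3 pairs, 6 had a correlation above 0.1 of deviations from group means in every pair (dPOLE4 against Ctrl at T0, T24 and 96 h, dPOLE4 MCM2-2A against Ctrl MCM2-2A at T0 and 96 h, and Ctrl MCM2-2A against Ctrl at 96 h). Counts of member genes, 191 or more per library, limit the precision of the lowest ones most.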

Additional observations from a re-analysis of the deposited data

Results flagged for a closer look

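A test of the difference between states picked out 7 values, each a T60 against T0 change that was lower than that of Ctrl cells. In Ctrl MCM2-2A the difference was -0.55 for Chaf1a, -0.60 for Chaf1b, -0.45 for Nasp and -0.56 for Daxx on the log2 scale. In dPOLE4 MCM2-2A it was -0.60 for Chaf1a, -0.48 for Chaf1b and -0.53 for Nasp. Both sets share the Ctrl libraries, and the MCM2-2A line is 1 clone. Nasp, Chaf1a and Daxx were higher in Ctrl MCM2-2A than in Ctrl at T0, and Chaf1b and Daxx were lower at T60. The Chaf1b value of dPOLE4 MCM2-2A kept its adjusted p in 2 of 12 fits that left out a library.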

How the results depend on the processing

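The 9 calls at T60 against T0 held in 8 of 8 alternatives each and in 6 of 6 fits that left out a library. No value reversed its direction where it was called. Without the fold threshold the counts were 48 at the RA times, 19 for Ctrl MCM2-2A against Ctrl and 7 for the difference from the Ctrl change at T60. That last count, 2 in the report, was 1 with TMM from genes only, 1 with TMM without chromosomes 11, 14 and 15, 1 with 10 counts required in every library and 0 without a filter, and the cause was not tested. Leaving out 1 library at a time gave 0 to 3 for it (0 without the third Ctrl T60 library) and 4 to 8 by the adjusted p alone (4 without the same library), 9 to 11 and 44 to 51 for the RA times, and 0 to 1 and 16 to 20 for Ctrl MCM2-2A against Ctrl. For dPOLE4 in the MCM2-2A line the count by the adjusted p was 0 to 1, with Daxx at T60 (0.26, adjusted p = 0.00798) passing without the third dPOLE4 MCM2-2A library of T60, and 2 with all groups in one fit (Hira at T24 and T60). With DESeq2, 3 values lost their adjusted p, Asf1a at T0 in Ctrl MCM2-2A against Ctrl (0.0114), Asf1a at T60 in Ctrl (0.0165) and Asf1b at T60 in dPOLE4 (0.0269), and 5 gained one, among them the Atrx difference from the Ctrl change in Ctrl MCM2-2A (0.00593).

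With the replicate number as a block, the counts by the adjusted p were 1 in dPOLE4 and 1 in dPOLE4 MCM2-2A, both Atrx at 96 h, and the block changed no other call in the 6 comparisons whose numbers pair the samples. Elsewhere not every pair had a correlation above 0.1, though some comparisons came near. In dPOLE4 MCM2-2A at T60 against T0 the lowest was 0.0956 and the mean 0.248. In these other comparisons, under the block, Nasp and Tonsl at T12 in Ctrl MCM2-2A against Ctrl had adjusted p of 0.0109 and 0.0298, Ssrp1 at T24 in dPOLE4 0.0151 and Asf1b at T60 in dPOLE4 0.0114. Other values passed only under the block. In Ctrl MCM2-2A against Ctrl these were Chaf1b at T0 (0.008) and Chaf1a at T60 (0.00118). Against T0 they were Hira at T12 in dPOLE4 (0.00967), Asf1b at T24 in Ctrl MCM2-2A (0.00799) and Hira at T60 in dPOLE4 MCM2-2A (0.00573). The Atrx (0.00201) and Asf1b (0.00462) differences from the Ctrl change in Ctrl MCM2-2A also passed with the block.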
